A study of Mus musculus with 15 samples.

Results

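Collagen genes encode the chains that wind in sets of 3 into the triple helices of the extracellular matrix. They were taken as every RefSeq protein-coding gene of the mouse genome mm10 whose symbol is Col, a number, a and a number, which gave 44 genes of 21000 with a curated transcript. Of these, 11 encode fibrillar chains, 6 encode the chains of type IV collagen, the network collagen of basement membranes, and 27 encode other types. For each gene, the peaks of the histone mark H3K27ac were collected at the promoter, meaning within 2 kb of a start site, and over the gene span, meaning the gene body with 20 kb on either side.

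H3K27ac had been profiled by CUT&RUN, in which a nuclease tethered to an antibody releases the DNA beside the mark, in fusion-positive rhabdomyosarcoma (FP-RMS) tumors of 2 mouse models. Mice of both models carry Cdkn2a(Flox/Flox), which removes a tumor suppressor, a PAX3-FOXO1 fusion allele and the tdTomato reporter R26-tdTom. The labels spell the fusion allele Pax(3P3F/P3F), and the study spells it Pax3(P3Fm/P3Fm). The 2 models differ in the Cre line. MCP mice have Myf6-Cre, which acts in myogenic cells, and TCP mice have Tek-Cre, whose Tek regulatory sequence acts in endothelial and blood cells. The series holds 15 libraries, with 6 MCP and 3 TCP libraries for H3K27ac and 3 MCP and 3 TCP libraries for IgG, the background control. The values below come from the peak list of 1 library, MCP H3K27ac replicate 5, so there are no replicates and no test was made between genes or between tumor types. Mouse ages were not given in the labels used here, and live tumor cells were sorted from digested tumors before nuclei were taken, so a mark carried by few cells and a weak mark in all cells cannot be told apart.

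Fibrillar chains form the banded fibrils of tendon, skin and muscle connective tissue, and fibroblasts are their best known source. Type IV chains form sheets under epithelia, around vessels and around each muscle fiber, and their genes lie in head-to-head pairs. H3K27ac lies beside active promoters and enhancers, and in collagen genes enhancers are known both far upstream and within introns.

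The list held 122375 peaks with a median fold enrichment of 5.22 over background and a median width of 163 bp. A fragment is a piece of released DNA, and the number over each summit, the highest point of a peak, was recovered from the list itself. The median was 13 fragments, the fewest was 7, and 84.2% of the summits had fewer than 20, so a gene without a peak is one where none was detectable at this depth. Among the lists of cell type markers, a promoter peak was held by 2 of 14 myogenic genes (Dag1 and Myf6), 6 of 14 fibroblast, 1 of 14 endothelial, 2 of 14 leukocyte, 3 of 14 cartilage and tendon, and 5 of 14 Schwann cell genes, against 45.5% of all genes. No promoter peak was listed for 12 of the 14 myogenic markers in this tumor library. A peak in the gene span was found for 9 of the 14, against 68.7% of all genes. Their densities ran from 0 to 34.7 peaks per 100 kb of span, with a median of 1.79 against 4.85 over all genes. The median was 1.97 in the fibroblast, 3.51 in the endothelial and 1.73 in the leukocyte list. It was 0.911 in the cartilage and tendon list and 7.45 in the Schwann cell list. A span peak was found for 8 fibroblast, 11 endothelial, 8 leukocyte, 7 cartilage and tendon, and 11 Schwann cell genes, of 14 each. The part that cell makeup has in the collagen values was not tested.

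Sequences are shown for 3 fibrillar promoters, 2 with a peak and 1 without, and for the summits on which the fibrillar results turn. The promoter lines give the 250 bases before the RefSeq start site (GRCm38.p6), 5′ to 3′ on the gene's strand, with capitals for the TATA box (TATAAA), the CCAAT box (CCAAT) and the GC box (GGGCGG) on either strand, none of which overlaps another by its letters. RefSeq promoter sequences were matched for 35 of the 44 collagen genes, and Col5a2 and Col1a1 were among the 9 without one.
Col3a1 (with a peak), chr1:45311288-45311537, + strand: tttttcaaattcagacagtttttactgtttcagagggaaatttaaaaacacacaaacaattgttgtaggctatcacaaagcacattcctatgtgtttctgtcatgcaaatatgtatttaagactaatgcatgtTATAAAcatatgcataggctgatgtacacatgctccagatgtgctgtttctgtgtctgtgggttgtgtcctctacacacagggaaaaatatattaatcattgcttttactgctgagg
Col5a1 (with a peak), chr2:27886175-27886424, + strand: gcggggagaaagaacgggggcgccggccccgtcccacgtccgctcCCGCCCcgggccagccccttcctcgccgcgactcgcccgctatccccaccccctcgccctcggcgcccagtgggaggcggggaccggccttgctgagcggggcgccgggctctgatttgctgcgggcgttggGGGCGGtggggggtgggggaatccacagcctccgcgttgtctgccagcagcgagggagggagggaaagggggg
Col1a2 (without a peak), chr6:4505368-4505617, + strand: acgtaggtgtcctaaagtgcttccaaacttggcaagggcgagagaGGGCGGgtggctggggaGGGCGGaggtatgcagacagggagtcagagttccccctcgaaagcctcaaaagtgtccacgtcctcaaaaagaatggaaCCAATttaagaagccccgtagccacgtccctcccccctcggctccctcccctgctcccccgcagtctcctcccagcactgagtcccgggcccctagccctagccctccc
The Col3a1 stretch holds the letters of a TATA box and the Col5a1 stretch those of GC boxes, while the Col1a2 stretch holds those of GC boxes and a CCAAT box. These names stand for matches of letters anywhere in the 250 bases. No distance from the start site was required, so a match need not be a working promoter element. A GC box was found in 21 of the 35 matched collagen genes, in any of the sequences a gene has, and in 32.7% of all 32851 promoter sequences. A TATA box was found in 5 of the 35 and in 12.4% of all, and a CCAAT box in 13 of the 35 and in 33.8% of all.

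The summit lines give 200 bases of mm10 on the + strand, with the 10 bases around the summit in capitals.
Col5a2, strongest peak of all collagen spans, chr1:45473261-45473460: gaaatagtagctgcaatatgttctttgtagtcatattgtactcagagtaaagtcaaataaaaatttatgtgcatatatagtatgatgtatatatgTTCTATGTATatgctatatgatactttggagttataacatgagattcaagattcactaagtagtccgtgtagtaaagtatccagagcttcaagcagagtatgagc
Between Col3a1 and Col5a2, the shared peak, chr1:45356293-45356492: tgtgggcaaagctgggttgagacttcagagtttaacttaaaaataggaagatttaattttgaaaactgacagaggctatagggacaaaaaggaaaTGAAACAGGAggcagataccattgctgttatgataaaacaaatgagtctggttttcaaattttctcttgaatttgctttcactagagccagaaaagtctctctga
Col1a1, strongest upstream peak, chr11:94916425-94916624: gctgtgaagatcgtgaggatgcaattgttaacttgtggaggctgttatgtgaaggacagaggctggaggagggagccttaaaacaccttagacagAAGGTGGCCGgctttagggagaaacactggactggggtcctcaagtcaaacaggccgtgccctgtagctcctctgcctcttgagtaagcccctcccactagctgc
Col1a2, the only peak, chr6:4487898-4488097: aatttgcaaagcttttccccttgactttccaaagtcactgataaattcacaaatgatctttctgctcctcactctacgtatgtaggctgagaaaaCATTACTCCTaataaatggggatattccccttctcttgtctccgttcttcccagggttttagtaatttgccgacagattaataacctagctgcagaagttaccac
None of the 7 motifs searched in peaks, which are listed with their shares in the closing section, was found in these 4 stretches.

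Few collagen genes carried H3K27ac at their promoters in this tumor. A promoter peak was found for 9 of the 44 (20.5%), against 45.5% of all genes and 58.0% of the 4894 genes whose length lies between the collagen quartiles of 34.8 and 144 kb. Of the 22 collagen genes within that length range, 5 had a promoter peak. The 9 were Col3a1, Col5a1 and Col5a2 of the fibrillar genes and Col6a1, Col6a3, Col7a1, Col12a1, Col16a1 and Col23a1 of the other types. None of the 6 type IV genes had a promoter peak. Among the strongest 25% of all peaks, ranked here by significance (-log10 q) and not by fold, 3 collagen genes had a promoter peak (Col3a1, Col5a2 and Col16a1), against 29.3% of all genes.

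Promoters differ in CpG content, and so did the share of genes with a promoter peak. By the number of CpG dinucleotides within 500 bp of the start site, 14 collagen genes fell in the lowest tertile (0 to 22), where 4 had a promoter peak (Col3a1, Col5a2, Col6a1 and Col6a3) against 12.0% of all genes there. In the middle tertile (23 to 63) it was 2 of 22 (Col7a1 and Col16a1) against 54.2%. In the highest tertile (64 to 179) it was 3 of 8 (Col5a1, Col12a1 and Col23a1) against 71.2%. The collagen genes thus lay under the share of all genes in the CpG-rich and middle classes and over it in the CpG-poor class, with 7 CpG at Col3a1, 15 at Col5a2, 16 at Col6a1 and 17 at Col6a3. The CpG-poor count rests on few genes. Col3a1 and Col5a2 are neighbors in the genome, and Col6a1 and Col6a3 lost their promoter peaks under a stricter limit (-log10 q of at least 5).

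Over the gene spans, a peak was found for 35 of the 44 (79.5%), against 68.7% of all genes and 81.2% of genes of similar length. The median collagen gene had 2.68 peaks per 100 kb of span, against 4.85 over all genes and 6.10 over genes of similar length. The 22 collagen genes within that length range also had a median of 2.68, and 18 of them had a span peak. Their bodies were longer than those of the genes of similar length, with medians of 114 and 60.5 kb. Over the gene bodies alone the order of collagen and all genes turned, with medians of 0.954 and 0. Only 49.8% of all genes had a body peak, which sets their median at 0. Their median body was 16.7 kb long against 114 kb for collagen genes, and genes of similar length were not compared in this setting. Above the median of all genes lay 16 collagen genes, and above its 90th percentile lay 2, Col3a1 and Col5a2. The spans held 367 peaks, of which 24 lay at a collagen promoter and 33 at the promoter of another protein-coding gene. The peaks were unevenly shared, since the 5 genes with the most (Col23a1 with 52, Col5a2 with 45, Col12a1 with 37, Col3a1 with 28 and Col28a1 with 24) held 184 of them, or 50.1%.

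**Figure D1:**
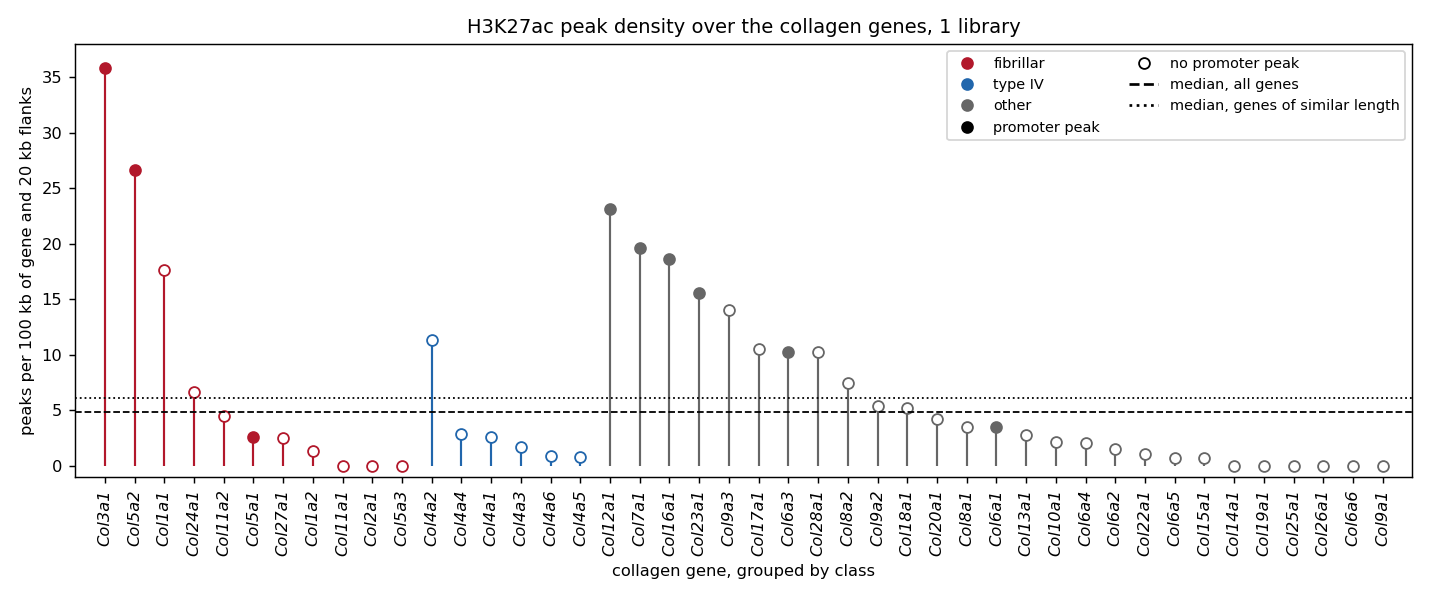
Peaks per 100 kb of gene span (y axis) for each of the 44 collagen genes (x axis), colored by class, with filled circles for genes with a promoter peak and lines at the medians of all genes (4.85) and of genes of similar length (6.10). Col3a1, at 35.8, and Col5a2, at 26.6, stand above the rest, and 9 genes are at 0.

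The fibrillar genes Col3a1 and Col5a2, which lie tail to tail on chromosome 1, had the highest peak densities of the family. Col3a1 encodes the chain of type III collagen, the reticular fibril collagen of soft tissue, and occupies chr1:45311538-45349706 on the + strand. Col5a2 encodes a chain of type V collagen, which starts fibrils and sets their diameter, and occupies chr1:45374331-45503282 on the - strand. Their joint span of 231.7 kb held 71 peaks, which covered 11.7% of it, at 30.6 peaks per 100 kb. Chromosome 1 as a whole had 6.07 peaks per 100 kb, so the Col3a1 span was 5.90 times and the Col5a2 span 4.39 times as dense as its chromosome.

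The Col3a1 start site lay under a peak of 2200 bp (chr1:45310488-45312687), with its summit 493 bp upstream, a fold enrichment of 13.4 and 40 fragments (exact Poisson 95% interval 28.6 to 54.5). A second promoter peak, with its summit in intron 1 at 2.25 kb, reached a fold of 11.5 with 38 fragments. The remaining promoter peaks, at 2.12 kb upstream and 1.32 kb downstream, had folds of 5.66 and 6.86. Farther out, a peak 11.8 kb upstream had a fold of 8.87 and another beyond it a fold of 7.67. Within the Col3a1 body, 18 summits lay in introns and exons, and those beyond intron 1 had folds of at most 6.45.

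At Col5a2, 4 peaks lay at the promoter, with folds of 7.78 at the start site, 9.39 at 0.541 kb, 11.5 at 1.56 kb and 6.82 at 1.81 kb into the gene. The strongest peak of all collagen spans lay deeper in its intron 1 (chr1:45472525-45475123, 2599 bp), 29.9 kb from the start site, with a fold of 17.5 and 45 fragments (32.8 to 60.2). Its fold lay at percentile 99.84 of all peaks. Another intron 1 peak, 7.91 kb from the start, had a fold of 10.9 and 36 fragments. In all, 20 of the 40 intronic summits of Col5a2 lay in intron 1, and the others were spread over 10 introns.

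Between the 3′ ends of the 2 genes, 24.6 kb apart, lay the widest peak of the locus (chr1:45354395-45358522, 4128 bp), with a fold of 9.93 and 55 fragments (41.4 to 71.6), the most of any peak in a collagen span. This peak and 1 smaller one were the only peaks that 2 collagen spans shared. Of the 11 peaks at least 1 kb wide in collagen spans, 6 lay in this locus. Without Col3a1 and Col5a2, 7 of 42 collagen genes had a promoter peak and the median density was 2.59 peaks per 100 kb.

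**Figure D2:**
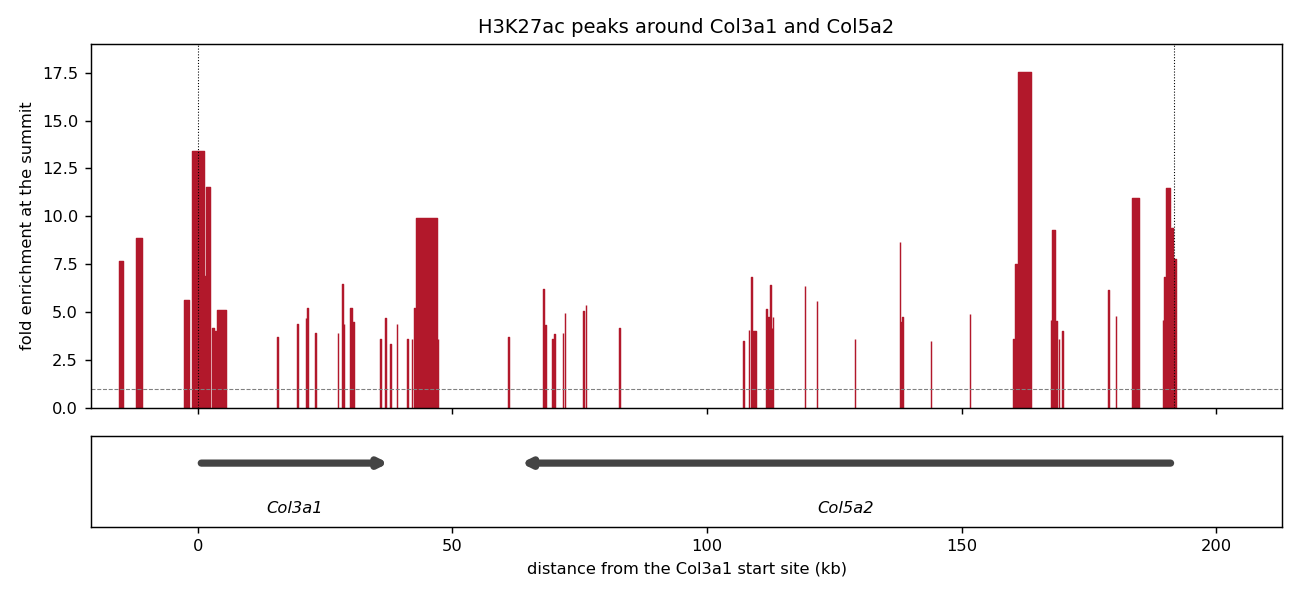
Fold enrichment at the summit (y axis) of each of the 71 H3K27ac peaks, drawn at its width, against the distance from the Col3a1 start site in kb (x axis), with gene bodies as arrows and start sites as dotted lines. The tallest bars stand in intron 1 of Col5a2 (17.5), at the Col3a1 start (13.4), just after it in intron 1 of Col3a1 (11.5) and at the Col5a2 promoter (11.5), and the widest lies between the gene ends.

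Type I collagen, the main fibril of bone, skin and tendon, had no peak at either promoter or in either gene body. Col1a1 (chr11:94936224-94953042, + strand), which encodes the alpha 1 chain, had 10 peaks in its span, all upstream. Of these, 3 lay over 19 kb from the start site, led by a peak 144 bp wide with a fold of 7.55 and 33 fragments (22.7 to 46.3). The other 7 lay between 6.60 and 9.66 kb upstream, with folds between 4.01 and 5.84. Col1a1 thus had 17.6 peaks per 100 kb, 2.22 times the density of chromosome 11, which was the densest chromosome. Col1a2 (chr6:4505618-4541543, + strand), which encodes the alpha 2 chain, had 1 peak, 17.6 kb upstream, with a fold of 4.07 and 11 fragments (5.49 to 19.7). Its density of 1.32 peaks per 100 kb was 0.222 times that of chromosome 6.

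The remaining fibrillar genes ranged from 0 to 6.68 peaks per 100 kb, with Col24a1 the highest. Col5a1, the partner of Col5a2 in type V collagen, had 3 promoter peaks, all in intron 1 between 1.02 and 1.97 kb from the start, with folds of 5.22, 4.79 and 5.65 and 10 to 12 fragments each. Its span of 193 kb held 5 peaks in all. Col24a1, which encodes a minor fibrillar chain, had no promoter peak and 20 peaks in its body, all in introns and spread over 9 of them, and the strongest lay in intron 53, 224 kb from the start, with a fold of 9.53 and 21 fragments. Col27a1, a fibrillar chain of cartilage, had 1 intronic peak and 3 peaks past its end, with a highest fold of 5.22. The 3 peaks in the span of Col11a2, a cartilage chain, all lay at promoters of other genes. Col2a1, the main cartilage collagen, its partner Col11a1, and Col5a3 had no peak in their spans. The nearest summit was 67.8 kb from the Col2a1 start site, 400.0 kb from that of Col11a1 and 72.4 kb from that of Col5a3.

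The type IV genes lacked promoter peaks and carried some intronic ones. Col4a1 and Col4a2, the ubiquitous pair on chromosome 8, start 21 bp apart, and the nearest summits lay 52.1 kb from the Col4a2 and 52.2 kb from the Col4a1 start site, within Col4a1. There, 3 of its 4 peaks clustered in intron 2 with folds from 3.82 to 7.22. Col4a2 had 16 peaks in its body, 15 of them in intron 4 between 58.9 and 80.3 kb from the start, with folds from 3.28 to 6.51 and 8 to 17 fragments. A further 4 lay past its end, led by one 151 kb from the start with a fold of 7.70 and 25 fragments (16.2 to 36.9). Col4a2 had 11.3 peaks per 100 kb, 2.69 times the density of chromosome 8, against 0.615 times for Col4a1.

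The paired genes Col4a3 and Col4a4, whose chains form the basement membrane of the kidney glomerulus, start 72 bp apart on chromosome 1. Col4a4 had 5 intronic peaks with folds from 3.99 to 6.74, and 4 of them lay within intron 7. The 3 peaks in the Col4a3 span all lay at the promoter of Mff, past the gene's end. Col4a5 and Col4a6, the pair on the X chromosome, had 2 and 3 intronic peaks, with folds of at most 5.65 and 4.79. The X chromosome had 0.996 peaks per 100 kb against 4.49 over the genome, and the densities of 0.788 and 0.860 of these genes were 0.791 and 0.864 times that of their chromosome.

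**Figure D3:**
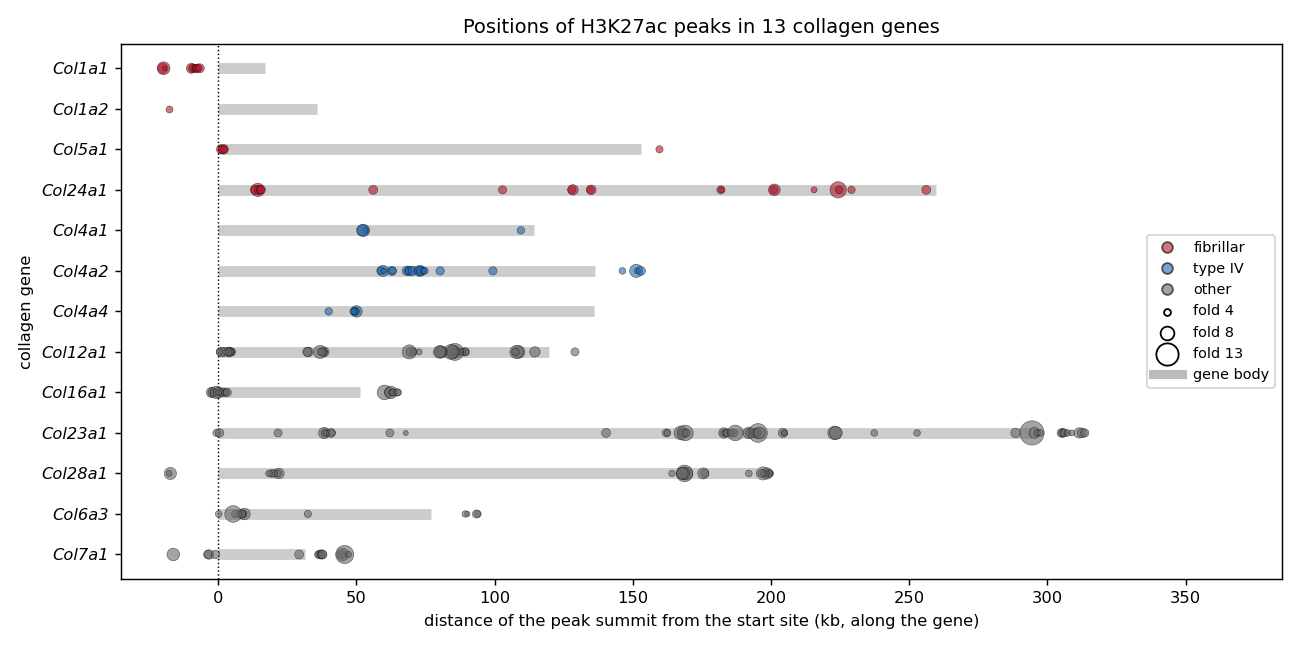
Summit position along 13 collagen genes in kb from the start site (x axis, negative upstream), with circle area rising with fold enrichment, color for class and grey bars for gene bodies. Col1a1 and Col1a2 have peaks upstream only, Col4a2 a cluster in intron 4, and Col12a1 and Col24a1 peaks along the body.

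Among the other types, the 3 classic type VI genes encode the chains of the beaded microfibrils that surround muscle fibers. Col6a1 had 1 promoter peak, with its summit 437 bp upstream, a fold of 5.22 and 11 fragments, and 1 more peak 5.01 kb upstream. Col6a2, its neighbor, had 1 peak with a fold of 3.50 and 7 fragments, the fewest in the list, 10.8 kb from the start. Col6a3 had 12 peaks, of which 7 lay in intron 1, and the weakest of these was its promoter peak, with a fold of 3.89 and 8 fragments (3.45 to 15.8). The strongest lay 5.47 kb into the gene and was 1399 bp wide, with a fold of 9.77 and 32 fragments (21.9 to 45.2). The later type VI genes Col6a4 and Col6a5 had 3 and 1 intronic peaks, and Col6a6 had none.

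The collagens that sit on fibril surfaces, called FACIT, ranged from 37 peaks to none. Col12a1, a fibril-associated chain of tendon and muscle, had 37 peaks and 23.2 per 100 kb, 4.89 times the density of chromosome 9. Its 2 promoter peaks, both in intron 1, had folds of 5.42 and 3.87, and its 34 intronic summits were spread over 17 introns, with the strongest in intron 46 (818 bp, fold 9.96, 22 fragments). Col16a1 had the most promoter peaks of the family, 6, with folds from 3.93 to 7.37 and 8 to 16 fragments, and 17 peaks in its span, of which its strongest (fold 8.61) lay at the promoter of Pef1. Col22a1, a chain of the muscle and tendon junction, had 3 peaks in 1 intron with a highest fold of 4.79, and 13 where predicted RefSeq transcripts were included. Col9a2 had 3 upstream peaks. Of the 9 peaks in the Col9a3 span 8 lay at promoters of other genes, as did all 3 in the Col20a1 span. Col9a1, Col14a1 and Col19a1 had none.

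Col19a1, on chr1:24257683-24587437, lies near a region that was amplified in all samples. By the methods of the study, its reads were discarded before peak calling, and whether this was done for the deposited list is not settled here. That region is 4.82 kb long and begins 24.0 kb upstream of the Col19a1 start site, 4.00 kb outside the span used here. No peak was listed within 50 kb of the region, and the nearest summit to the Col19a1 start site was 90.6 kb away. Peak names are numbered along the genome, and 1 number is absent between the listed peaks that flank Col19a1 and its neighbor Col9a1 on either side, so where that peak lay and whether it touched either span is not known here. Col5a3 was the only other collagen gene for which a number is absent between flanking peaks.

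Of the transmembrane collagens, Col23a1 had the most peaks of all collagen genes, 52, over a span of 334 kb. Its density was 15.6 peaks per 100 kb, 1.96 times that of chromosome 11. Its 2 promoter peaks had folds of 4.46 and 4.98, and 33 of its 38 intronic summits lay in intron 2, led by a peak 195 kb from the start with a fold of 10.9 and 26 fragments (17.0 to 38.1). The strongest peak in its span, with a fold of 14.2 and 47 fragments, lay at the promoter of Phykpl, just past its end. Col13a1, a chain of the neuromuscular junction, had 5 intronic peaks with a highest fold of 6.82, Col17a1 of hemidesmosomes had 9 peaks, 8 of them outside the gene, and Col25a1, a chain that muscle makes for its motor axons, had none.

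Col7a1, the anchoring fibril chain of skin, had 1 promoter peak 932 bp upstream with a fold of 4.99 and 12 fragments, and 14 peaks in its span, 5 of them at promoters of other genes. Col28a1, a chain near peripheral nerve, had 24 peaks and none at its curated promoter, though 1 or more at the start site of a predicted transcript. Of its 13 intronic summits, 5 lay in intron 3 and 5 in intron 27. The intron 27 summits were led by one with a fold of 9.76 and 34 fragments (23.5 to 47.5). A further 9 peaks lay past its end. Of the multiplexins, which carry endostatin-like ends, Col18a1 had 8 intronic peaks with a highest fold of 10.3 and Col15a1 had 1 with 7 fragments. The short chain genes Col8a1, Col8a2 and Col10a1 had 6, 5 and 1 peaks and none at a promoter, and Col26a1 had none in its span.

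**Figure D4:**
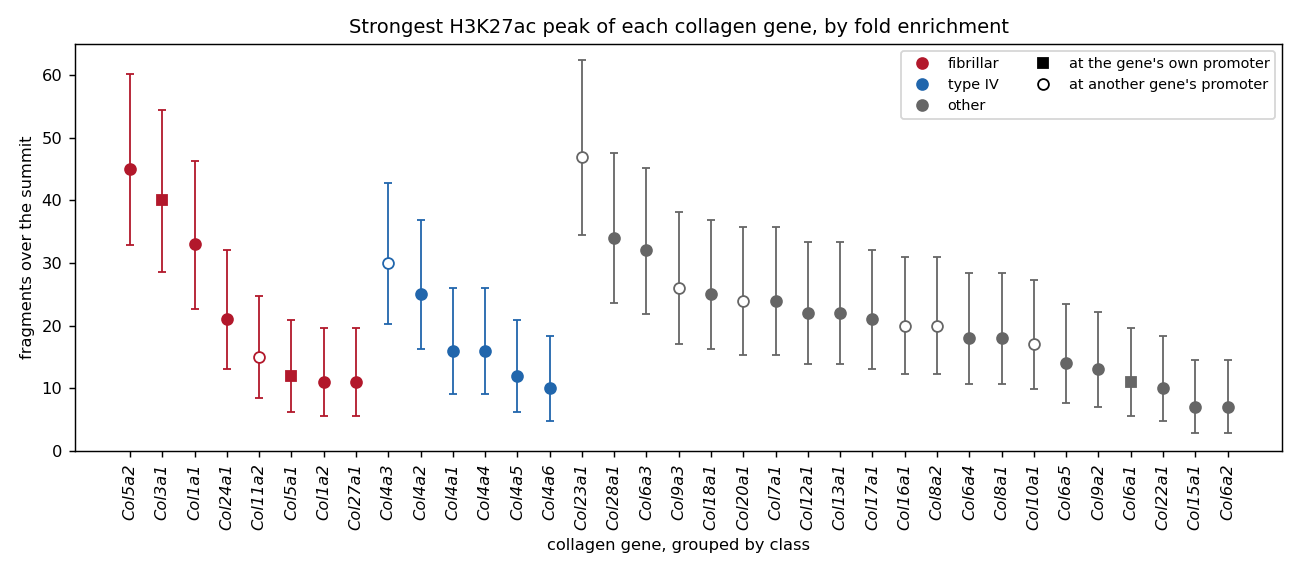
Fragments over the summit (y axis) of the peak with the highest fold in the span of each of the 35 collagen genes with a peak (x axis), with exact Poisson 95% intervals for counting error, squares for peaks at the gene's own promoter and open circles for peaks at another gene's promoter. The strongest peak was at the own promoter for 3 genes and at another gene's promoter for 8, and most intervals of the weaker genes overlap.

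Of the 16 promoter peaks outside Col3a1 and Col5a2, 14 had a fold under 6, as did 68.3% of all peaks in the list, while the 8 at Col3a1 and Col5a2 ranged from 5.66 to 13.4. Set by class, the median density was 2.59 peaks per 100 kb in fibrillar, 2.15 in type IV and 3.49 in other collagen genes, with ranges from 0 to 35.8, from 0.788 to 11.3 and from 0 to 23.2, which overlap widely. Of the 369 summits counted over the genes, 231 lay in introns, 49 of these in intron 1, with 13 in exons, 51 upstream and 74 downstream.

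The genes that modify, fold, export and process collagen chains carried promoter peaks in 23 of 38 cases (60.5%), against 45.5% of all genes and 9 of the 44 collagen genes. The share was 58.0% in genes of the length of the middle collagen genes and 71.2% in the highest CpG tertile. The lists were matched for neither length nor CpG content. Among the genes that modify and fold the chains it was 12 of 19, led by P4hb, the shared subunit of prolyl 4-hydroxylase (fold 12.0, 30 fragments), with Fkbp14 at 9.10, the prolyl isomerase Ppib at 9.10, the catalytic subunit P4ha1 at 8.24, the prolyl 3-hydroxylase P3h1 at 7.37 and Serpinh1, the collagen chaperone HSP47, at 7.13. For secretion it was 5 of 6, with the coat protein Sec23a at 9.93, Mia2 at 8.29, Sec24d at 7.80, Sar1b at 7.03 and the procollagen export receptor Mia3 at 6.67. For propeptide processing and crosslinking it was 6 of 13, with Pcolce, an enhancer of propeptide cleavage, at 13.4, Adamts14 at 8.24, the lysyl oxidases Loxl1 at 6.94, Loxl3 at 6.76 and Loxl4 at 3.93, and the C-proteinase Bmp1 at 5.97.

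Among the genes that read and remodel collagen, the shares lay near the 45.5% of all genes. A promoter peak was found for 5 of 10 receptors (50%), with Ddr1 at a fold of 9.96, the integrin chains Itgb1 at 9.10, Itga1 at 7.37 and Itga2 at 6.94, and Ddr2 at 5.22. For collagenases and their inhibitors it was 4 of 9 (44.4%). Among the enzymes the membrane collagenase Mmp14 alone had one, at 10.7. The others were the inhibitors Timp1 and Timp2, both at 6.08, and Timp3 at 4.79. For the partners of type IV collagen in the basement membrane it was 6 of 11 (54.5%), with the laminin chains Lamb2 at 12.7, Lamc1 at 9.20, Lama5 at 7.80 and Lama4 at 5.22, perlecan (Hspg2) at 9.53 and Agrn at 6.08.

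**Figure D5:**
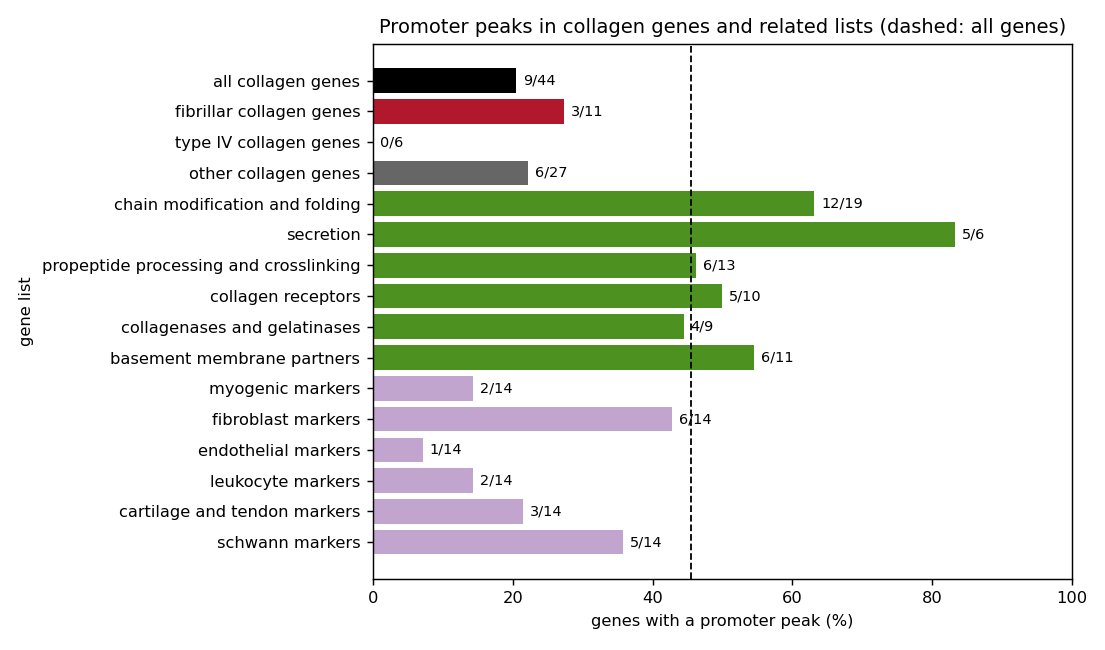
Share of genes with a promoter peak in percent (x axis) for the collagen classes, 6 lists of collagen-related genes and 6 marker lists (y axis), with the count beside each bar and a dashed line at all genes (45.5%). The bars of the collagen classes end left of the line. Of the 6 bars of collagen-related lists, 5 end right of it, all but that of collagenases and their inhibitors.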

How the data were processed

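The authors mapped read pairs to mm10, removed those over problematic regions and over amplified sequence close to Col19a1, and called peaks of each library against IgG. The submitters' processing notes name BWA, SAMtools and MACS2 and the builds mm10 and dm6. The methods of the study name bowtie and an earlier MACS. The tool behind the list, and whether these reads were removed for it, are thus not settled here. For each peak the deposited columns hold a score, a fold enrichment and a -log10 p and -log10 q. The fold is a ratio of summit signal to background, with the same constant added to both. These deposited values are the authors' own and served here to describe and filter peaks. The list was assigned to MCP H3K27ac replicate 5 because its peak names carry the number in that library's description.

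Fragments over each summit were solved as whole numbers from the deposited fold and -log10 p with 1 scale between libraries (0.8845). This solved 99.9992% of the peaks within 0.01, 91.3% of them with 1 solution, and 4.22% of a sample of peaks with a scale 3% off. No molecular identifiers are named in the sources used here, so the intervals cover counting error alone. The largest q in the list was 0.0471.

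Genes and start sites (26032) were the curated RefSeq transcripts of GRCm38.p6. A peak belonged to a window when at least 1 bp overlapped, and peaks in 2 collagen windows counted for each. Introns were numbered along 1 transcript per gene. Python 3.11.15 with pandas 2.3.3, numpy 2.4.6, scipy 1.17.1 and matplotlib 3.10.9 was used, and fragment recovery and overlap counts were tested on simulated data. Members, classes, gene lists, motifs and the naming rule were chosen with earlier results of these data known. Values are given for every fibrillar and type IV gene, every other member with a promoter peak and the 10 members with most peaks, members without a peak are named, and up to 6 genes of each collagen-related list are named by their strongest promoter peak. Further members, Dag1 and Myf6 among the markers, and genes at whose promoters flanking peaks lie were named after their values were seen. The other 14 libraries were not analysed here.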

Additional observations from a re-analysis of the deposited data

How the results depend on the processing

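The library has no replicate, a typical peak rests on 13 fragments, and shallow peaks decide several counts. With peaks of -log10 q of at least 5, 5 collagen genes kept a promoter peak (Col3a1, Col5a1, Col5a2, Col12a1 and Col16a1), against 37.8% of all genes, with 2 in the other types. The collagen spans held 160 peaks, and 28 of the 44 genes had a span peak, against 61.6% of all genes. The median density was 1.48 peaks per 100 kb, against 2.13 over all genes. With the strongest 25% of the peaks by -log10 q, 3 collagen genes kept a promoter peak (Col3a1, Col5a2 and Col16a1), against 29.3% of all genes, with 1 in the other types. The collagen spans held 82 peaks, and 24 of the 44 genes had a span peak, against 52.4% of all genes. The median density was 0.567, against 0.827 over all genes. With the gene body alone, 25 genes had a peak and the median density was 0.954. This lay above the 0 of all genes and so turned the order. Only 49.8% of all genes, which have shorter bodies, had a body peak. The other 51 of 60 alternative values lay within 1.5 times the main one, with 9 or 10 promoter genes for windows of 1 and 5 kb, placement by the summit, all RefSeq transcripts and, chosen after seeing the data, GENCODE transcripts. The added gene was Col18a1 with 5 kb windows and with GENCODE, and Col28a1 with all RefSeq transcripts. Type IV had 0 under each of these alternatives. Also chosen after seeing the data, leaving out peaks at promoters of other genes left 31 genes with a peak and a median density of 1.96. The same was not computed for all genes, so these values have no counterpart to be set against. No paired analysis was possible because 1 library was used and no test was made.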

Other observations

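The study's list of genes of the mesenchymal-like state of rhabdomyosarcoma cells holds 14 of the 44 collagen genes. Of these, 6 had a promoter peak (Col3a1, Col5a1, Col5a2, Col6a1, Col6a3 and Col12a1), against 3 of the 30 collagen genes outside it (Col7a1, Col16a1 and Col23a1) and 45.5% of all genes, so the 42.9% in the list is near the share of all genes. The list's Col1a1, Col1a2, Col4a1, Col4a2, Col5a3, Col6a2, Col11a1 and Col15a1 had none. The median density was 3.04 peaks per 100 kb in the list and 2.64 outside it. The difference was not tested.

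Motifs were searched on both strands within 100 bp of the summits of the 310 collagen span peaks outside promoters and of all 97477 such peaks. The TEAD motif (GGAATG), bound by the effectors of the Hippo pathway, was found at 15.2% of the collagen summits and 11.6% of all. The myogenic E-box (CAGCTG) was found at 11.9% and 10.3%, and the AP-1 motif (TGANTCA) at 5.81% and 8.89%. The paired-domain core GTCACG was found at 2.90% and 2.39%, the CCAAT box at 19.7% and 22.5%, the TATA box at 13.9% and 14.0%, and the GC box at 1.61% and 2.74%. A match is a description of letters and no binding site.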
